A study of Mus musculus with 14 samples.

Results

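The tricarboxylic acid cycle enzymes described here are encoded by 9 mouse genes, Cs, Idh3a, Idh3b, Idh2, Ogdh, Dlst, Suclg1, Fh1 and Mdh2, out of 22180 genes measured in liver. They were chosen by symbol, and where a gene has several probe sets, the brightest on average across the 14 arrays was to stand for it. Each of the 9 genes has 1 probe set that carries its symbol alone, so this choice by level decided nothing here. The set was proposed, and Fh1 singled out, with differences between the groups in view, so the values below describe these arrays and are not independent evidence of a direction.

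Total hepatic RNA was hybridised to Affymetrix whole-transcript arrays. All mice were male C57Bl/6J that were placed on a 60% high-fat diet (HFD) at 6 weeks of age and fed it for 4 weeks to make them obese, and every group therefore carries diet-induced obesity. For another 4 weeks the canagliflozin group (n = 5 arrays) received the drug at 30 mg/kg together with the diet, the caloric restriction group (n = 5) ate 15 to 30% less so that its weight matched that of the drug group, and the HFD control group (n = 4) simply stayed on the diet. Canagliflozin inhibits SGLT2, the transporter that recovers glucose from the urine, so treated mice lose glucose and the energy it carries. The restricted group asks which hepatic differences accompany weight matching without the drug. No lean group was analysed here.

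The cycle oxidises acetyl groups from sugars, fatty acids and amino acids inside mitochondria and passes the electrons to the respiratory chain. In hepatocytes it also supplies carbon skeletons: citrate leaves for lipid synthesis, and malate and oxaloacetate leave for gluconeogenesis. Fumarate enters from the urea cycle, tyrosine breakdown and purine synthesis. Enzyme activity in the cycle is set largely by substrates, calcium and redox state, and transcript levels do not report flux.

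The promoters of Fh1, Suclg1 and Mdh2 are shown because Fh1 and Mdh2 had the smallest unadjusted p of the 9 in at least 1 comparison, and Suclg1 was the 1 member with groups that did not overlap. RefSeq promoter windows, from 250 bases before to 50 bases after a gene's start, were matched on GRCm38.p6 for 8 of the 9 members, all but Idh3a. The labels name no build for the array values. Capitals mark a match, on either strand, to 1 of 5 short motifs that were searched: TCAAGGTCA (oestrogen-related receptor), GCATGCGC (NRF1 core), CCGGAAG (ETS and GABP), GTAAACA (FOXO) and TGACGTCA (CREB, the same on both strands).
Fh1, chr1:175625586-175625885, minus strand: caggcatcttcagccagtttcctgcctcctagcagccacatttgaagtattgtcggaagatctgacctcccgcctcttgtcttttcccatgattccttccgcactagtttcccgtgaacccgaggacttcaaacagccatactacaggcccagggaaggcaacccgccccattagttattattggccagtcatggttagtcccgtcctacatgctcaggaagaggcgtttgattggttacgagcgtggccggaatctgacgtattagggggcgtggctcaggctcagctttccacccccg
Suclg1, chr6:73248255-73248554, plus strand: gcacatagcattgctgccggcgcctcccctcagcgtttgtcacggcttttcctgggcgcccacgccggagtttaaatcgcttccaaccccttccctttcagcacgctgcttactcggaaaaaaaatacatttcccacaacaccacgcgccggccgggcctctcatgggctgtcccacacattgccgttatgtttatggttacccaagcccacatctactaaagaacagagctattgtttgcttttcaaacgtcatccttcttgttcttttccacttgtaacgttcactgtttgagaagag
Mdh2, chr5:135778399-135778698, plus strand: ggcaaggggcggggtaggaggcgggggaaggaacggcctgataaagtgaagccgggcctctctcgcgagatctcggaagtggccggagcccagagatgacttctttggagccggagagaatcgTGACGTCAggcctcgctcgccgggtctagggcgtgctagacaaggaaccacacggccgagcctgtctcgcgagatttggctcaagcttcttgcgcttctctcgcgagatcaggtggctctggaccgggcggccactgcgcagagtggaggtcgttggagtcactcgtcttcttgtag

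Among these 3 windows, that of Mdh2 held 1 match, TGACGTCA, which begins at position -127 relative to the start site; this motif occurs in 1.79% of 32851 promoter windows. The windows of Fh1 and Suclg1 held none of the 5 motifs. Among the other members, 1 TGACGTCA lay in 3 overlapping windows of Ogdh, 1 GCATGCGC (2.71% of all windows) in 2 further overlapping windows of Ogdh, and CCGGAAG (8.86%) in the windows of Idh3b and Dlst. TCAAGGTCA (0.423%) and GTAAACA (3.65%) occurred in no member. A match is a description of letters and does not show that a factor binds.

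Array medians ranged from 4.07 to 4.13 (log2 RMA signal), and any pair of the 14 arrays correlated at r between 0.971 and 0.985. The 8 hepatocyte markers examined, among them Alb and Apoa1, averaged between 13.13 and 13.24 in every array, near the top of the scale. The 6 adipocyte markers averaged between 3.66 and 3.90 and the 6 skeletal muscle markers between 3.99 and 4.23, all near or below the array medians. The 7 lymphocyte, 7 neutrophil and 5 cholangiocyte markers averaged between 3.08 and 4.23. In bulk tissue, fewer cells of a type and less RNA per cell cannot be told apart.

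Under canagliflozin the cycle enzymes differed unequally from HFD controls. Fh1, which encodes fumarase, had a mean 1.52-fold higher, and Idh2, Idh3a and Mdh2 had means 1.29-, 1.22- and 1.18-fold higher. Cs, Idh3b and Ogdh lay within 1.06-fold of the controls. Of the 9 genes, 7 had a higher and 2 a lower mean, and their median log2 difference was 0.15, against -0.0008 for all 22180 genes. None of the 9 passed the threshold, an adjusted p under 0.05 over all genes in limma, where 0 genes in total passed (0%). At an unadjusted p under 0.05 there were 4 of the 9 (Fh1, Mdh2, Idh2 and Idh3a), against 6.51% of all genes, and 0 of the 9 had groups that did not overlap, against 1.95% of all genes.

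Under weight-matched caloric restriction the same enzymes had a median log2 difference of 0.060 from HFD controls, against 0.0016 for all genes, with 6 higher and 3 lower means. None of the 9 genes passed the threshold, and 0 of all genes did (0%). Mdh2, with a mean higher by 0.26 on the log2 scale, was the 1 member with an unadjusted p under 0.05, a level reached by 3.93% of all genes. Again 0 of the 9 had groups that did not overlap, against 1.4% of all genes. When canagliflozin was set directly against caloric restriction, the median was 0.15, against -0.0032 for all genes, with 5 higher and 4 lower means. No member passed the threshold, which 1 gene of 22180 did (0.00451%). At an unadjusted p under 0.05 there were 2 members, Fh1 and Suclg1, against 6.05% of all genes, and Suclg1 was the 1 member whose groups did not overlap, against 0.929% of all genes. The comparisons share arrays: both restriction and drug are set against the same 4 controls, and the drug group enters 2 of the 3 comparisons.

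**Figure D1:**
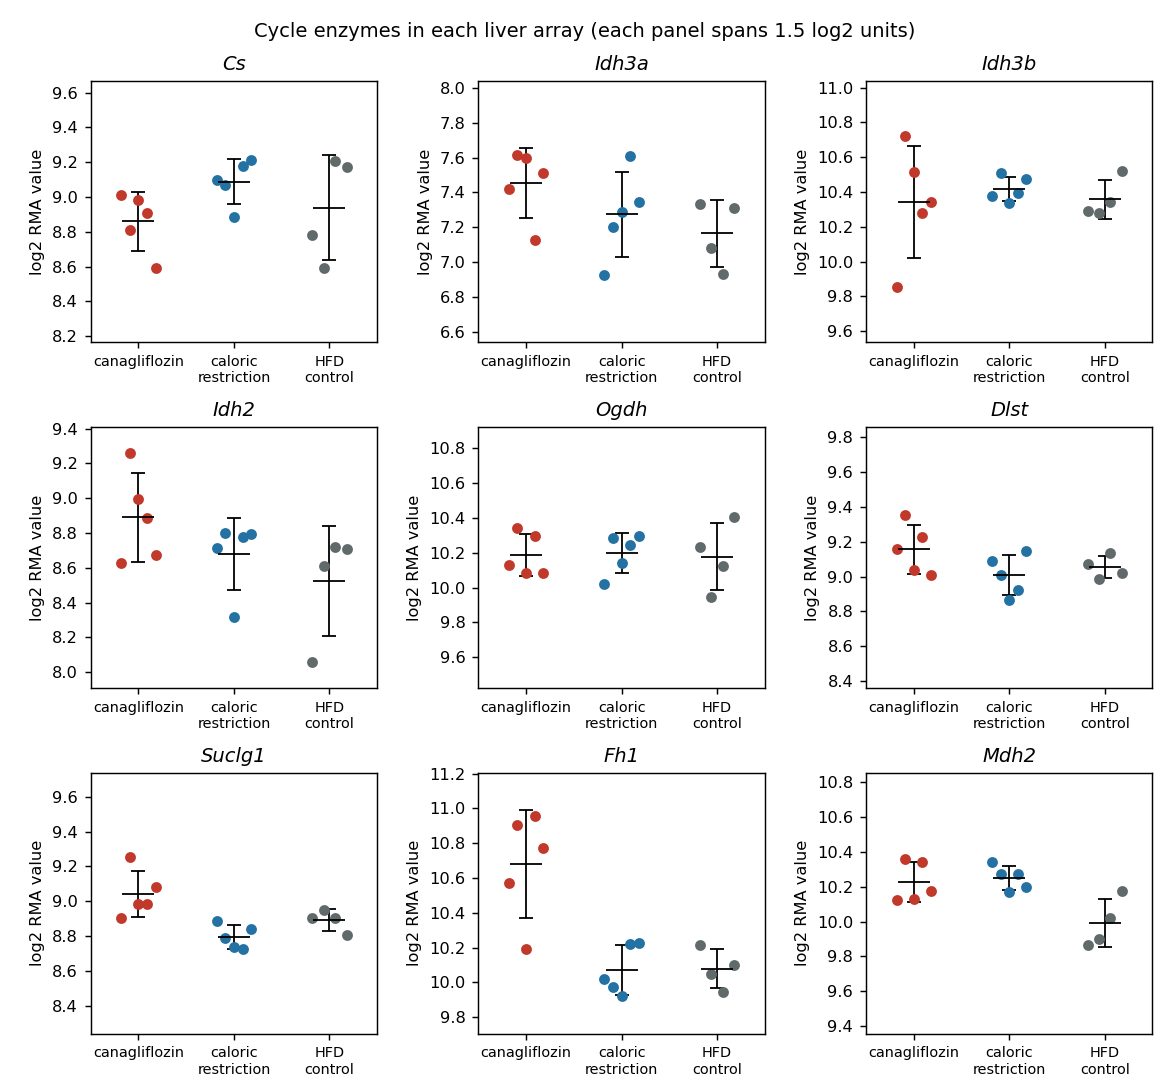
Each panel plots the log2 RMA value of 1 gene in every array, in the order of the cycle, with canagliflozin (n = 5), caloric restriction (n = 5) and HFD control (n = 4) from left to right; bars give the mean and the SD. In the Fh1 panel, 4 of 5 canagliflozin arrays lie between 10.57 and 10.96, above every other array, and the remaining 1 lies at 10.19.

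Fh1 stood out among the 9. Fumarase hydrates fumarate to malate in the mitochondrial matrix, and the same gene supplies a cytosolic form that handles fumarate from the urea cycle and purine synthesis. Its value was 10.57, 10.90, 10.19, 10.96 and 10.77 in the 5 canagliflozin livers. It was 10.02, 9.97, 9.92, 10.22 and 10.22 in the 5 calorie-restricted livers, and 10.22, 10.05, 9.95 and 10.10 in the 4 HFD controls. Canagliflozin replicates 1, 2, 4 and 5 lay above every array of the other groups, while replicate 3 lay inside the range of both, so the groups overlapped.

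The Fh1 means were 10.68 ± 0.31 (SD, n = 5) under canagliflozin and 10.08 ± 0.11 (n = 4) in HFD controls, a log2 difference of 0.60 ± 0.13 (SE). The 95% interval of this difference ran from 0.32 to 0.89, or 1.25- to 1.85-fold, and its limma adjusted p was 0.432. By unadjusted p (0.000312) it ranked 16 of 22180 genes. Against caloric restriction, at 10.07 ± 0.14 (n = 5), the drug group was higher by 0.61 ± 0.13 on the log2 scale (interval 0.34 to 0.88, limma adjusted p = 0.487), and Fh1 ranked 5 by unadjusted p (0.000158). Caloric restriction itself differed from HFD controls by -0.0056 ± 0.13, with an interval from -0.29 to 0.28. On the linear scale this interval runs from 0.819- to 1.21-fold.

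Canagliflozin replicate 3 decided whether Fh1 passed the threshold. Without it the log2 difference was 0.72 against HFD controls (limma adjusted p = 0.0208) and 0.73 against caloric restriction (adjusted p = 0.0148), and 12 and 16 of all genes passed (0.0541% and 0.0721%). Without each other array in turn, the Fh1 difference from HFD controls stayed between 0.53 and 0.65 and that from caloric restriction between 0.54 and 0.65, and it did not pass. That array was singled out because its values are known, so these calls are no independent support. Why replicate 3 lay apart was not tested.

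**Figure D2:**
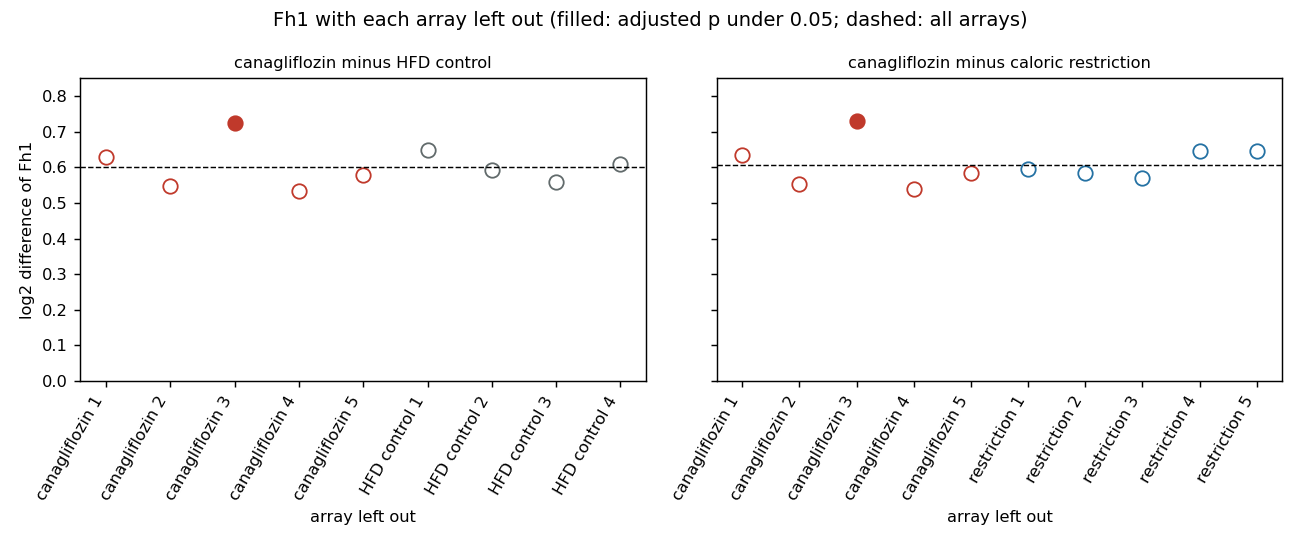
The log2 difference of Fh1 is plotted with each array left out in turn, for canagliflozin minus HFD control on the left and canagliflozin minus caloric restriction on the right; the dashed line is the value with all arrays, and filled points have an adjusted p under 0.05. The filled points are those without canagliflozin replicate 3, at 0.72 and 0.73.

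The steps that lead to fumarate from 2-oxoglutarate differed less. Suclg1 encodes the alpha subunit shared by the GTP- and ATP-forming succinyl-CoA ligases. It measured 8.91, 9.25, 8.98, 8.99 and 9.08 under canagliflozin, against 8.89, 8.79, 8.74, 8.72 and 8.84 under caloric restriction and 8.90, 8.95, 8.91 and 8.80 in HFD controls. Every drug-treated liver lay above every restricted one, by a narrow margin at the edge (8.91 against 8.89). The difference from caloric restriction was 0.25 ± 0.08 (SE) on the log2 scale (interval 0.073 to 0.42, limma adjusted p = 0.706) and that from HFD controls was 0.15 ± 0.09 (adjusted p = 0.813), with 4 of 5 drug-treated livers above all controls. Without canagliflozin replicate 2, at 9.25, the difference from HFD controls was 0.0983. Caloric restriction differed from HFD controls by -0.0957 ± 0.09, and 3 of 5 restricted livers lay below all controls.

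Markers of other liver cells were compared in the same way. The 8 macrophage and Kupffer cell markers were higher under canagliflozin than under caloric restriction in 8 of 8 cases (median log2 difference 0.21, 0 past the threshold) and than in HFD controls in 7 of 8 (median 0.12). Their mean level ranged from 6.59 to 7.13 under canagliflozin, from 6.03 to 6.96 under caloric restriction and from 6.20 to 7.15 in HFD controls. The groups overlapped, and the part of these cells in the Fh1 and Suclg1 differences was not tested. The 8 stellate cell markers had medians of -0.023 and 0.0985, and the 8 endothelial markers of -0.0206 and -0.0374, for the drug against HFD controls and against caloric restriction. The medians of the 8 pericentral and 6 periportal hepatocyte markers were 0.0016 and -0.0272 for the drug against HFD controls and -0.0335 and 0.0615 against caloric restriction. The 8 hepatocyte markers had medians of -0.0289 and -0.0114 in these comparisons.

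Ogdh and Dlst encode the E1 and E2 components of the 2-oxoglutarate dehydrogenase complex, which makes succinyl-CoA. Dlst measured 9.16 ± 0.14 under canagliflozin, 9.01 ± 0.12 under caloric restriction and 9.05 ± 0.06 in HFD controls (SD, n = 5, 5 and 4). Its differences were 0.10 ± 0.09 (SE) for the drug against HFD controls, with 3 of 5 arrays above all controls, and 0.15 ± 0.09 for the drug against restriction, and both 95% intervals included 0. Without canagliflozin replicate 2 the Dlst difference from HFD controls was 0.0546. Ogdh measured 10.19 ± 0.12, 10.20 ± 0.12 and 10.18 ± 0.19 in the same groups. Its interval for the drug against HFD controls, -0.21 to 0.23 on the log2 scale, was close to the median half-width of 0.25 over all genes, and differences inside it were not detectable with these arrays.

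At the entry to the cycle, citrate synthase (Cs) joins acetyl-CoA to oxaloacetate. The values were 9.01, 8.81, 8.98, 8.91 and 8.59 under the drug, against 9.10, 9.07, 8.88, 9.18 and 9.21 under caloric restriction and 8.78, 8.59, 9.21 and 9.17 in HFD controls. The controls formed a low and a high pair, and all groups overlapped. The differences were -0.0785 ± 0.13 (SE) for the drug against HFD controls, 0.15 ± 0.13 for restriction against HFD controls and -0.23 ± 0.12 for the drug against restriction (limma adjusted p = 0.958, 0.999 and 0.828). All 3 intervals included 0. The difference between drug and HFD control ranged from -0.1938 without HFD control replicate 2 to 0.0115 without HFD control replicate 3, so its sign rested on 1 array. That between restriction and HFD control was 0.0335 without HFD control replicate 2.

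The isocitrate dehydrogenases comprise the NAD-linked cycle enzyme, with Idh3a as its catalytic and Idh3b as a further subunit, and the NADP-linked mitochondrial enzyme Idh2. Idh3a measured 7.42, 7.61, 7.60, 7.13 and 7.51 under canagliflozin, against 6.93, 7.20, 7.29, 7.61 and 7.34 under caloric restriction and 7.34, 7.08, 6.93 and 7.31 in HFD controls. Of the drug-treated livers 4 of 5 lay above all controls and replicate 4 lay within their range. The difference from HFD controls was 0.29 ± 0.14 (SE; interval 0.0045 to 0.57, limma adjusted p = 0.758). Idh3b had means of 10.34 ± 0.32, 10.42 ± 0.07 and 10.36 ± 0.11 (SD) under canagliflozin, caloric restriction and HFD control, and the spread in the drug group came from replicate 1 at 9.86 and replicate 2 at 10.72. The 2 subunits of the same enzyme thus had differences of 0.29 and -0.0155 from HFD controls, and whether these differ from each other was not tested.

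Idh2 makes NADPH in the matrix. It measured 8.63, 9.26, 8.997, 8.89 and 8.68 under canagliflozin, 8.71, 8.80, 8.32, 8.78 and 8.79 under caloric restriction, and 8.06, 8.61, 8.72 and 8.71 in HFD controls. The difference between drug and HFD control was 0.37 ± 0.15 (SE; limma adjusted p = 0.738), with 3 of 5 treated livers above all controls. HFD control replicate 1, at 8.06, carried much of it, and without that array the difference was 0.21. Caloric restriction differed from HFD controls by 0.16 ± 0.15, by 0.0016 without the same array, and by 0.25 without caloric restriction replicate 3.

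Mdh2, the mitochondrial malate dehydrogenase, converts the malate made by fumarase to oxaloacetate. It was the 1 member with an unadjusted p under 0.05 against HFD controls under canagliflozin and under caloric restriction alike. It measured 10.13, 10.36, 10.13, 10.35 and 10.18 under canagliflozin and 10.34, 10.27, 10.17, 10.27 and 10.20 under caloric restriction, against 9.87, 9.90, 10.02 and 10.17 in HFD controls. Only HFD control replicate 4 reached the treated ranges. The differences from HFD controls were 0.24 ± 0.09 (SE; interval 0.044 to 0.43, limma adjusted p = 0.692) for canagliflozin and 0.26 ± 0.09 (interval 0.068 to 0.45, adjusted p = 0.999) for caloric restriction. Drug and restriction differed from each other by -0.0234 ± 0.09, with an interval from -0.21 to 0.16, and the sign of this difference changed with single arrays left out (range -0.0564 to 0.0022). Fh1 and Mdh2 encode consecutive enzymes. For the drug against restriction their log2 differences were 0.61 (interval 0.34 to 0.88) and -0.0234 (interval -0.21 to 0.16). Fh1 was singled out with differences between the groups in view, and whether these differences differ from each other was not tested.

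**Figure D3:**
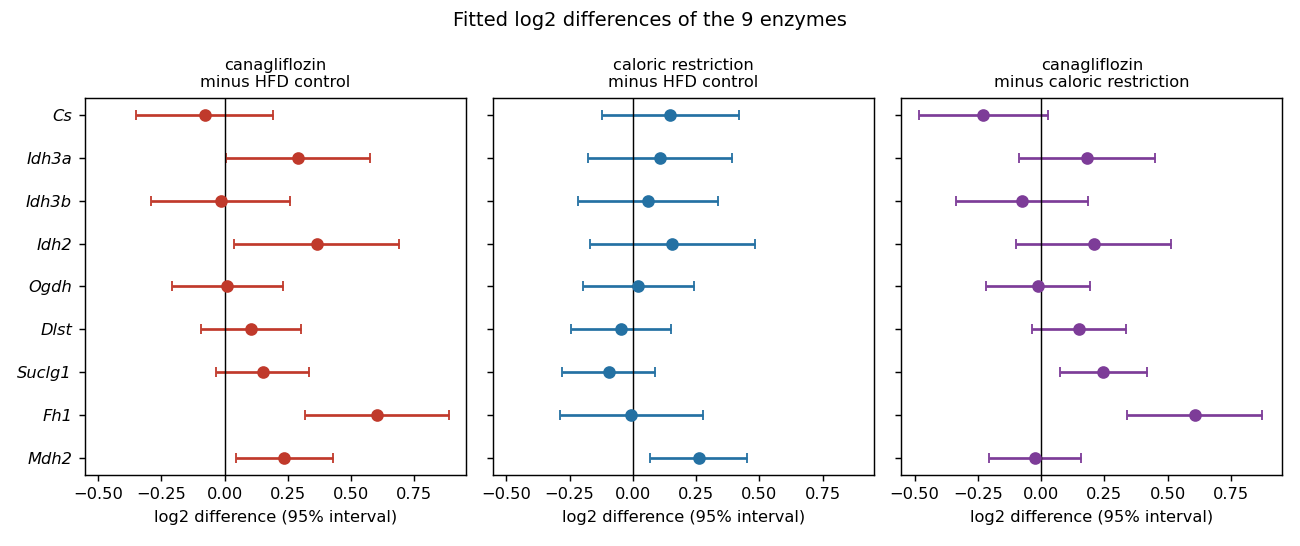
Points give the fitted log2 difference of each gene and bars its 95% interval, for canagliflozin minus HFD control, caloric restriction minus HFD control and canagliflozin minus caloric restriction from left to right. Fh1 lies at 0.60, -0.0056 and 0.61, and Mdh2 at 0.24, 0.26 and -0.0234.

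The members varied together only loosely from liver to liver. Over the 14 arrays, the 36 pairs of members had a mean Pearson r of 0.26 and 31 were positive, against a mean of 0.000498 over all pairs of genes; after each group's mean was removed, the mean over the members was 0.258 and 28 pairs were positive. These arrays share 3 groups and an array-wide normalisation, and the values are descriptions. By r over all arrays, the members most like Fh1 were Suclg1 (r = 0.721, rho = 0.591) and Dlst (r = 0.647, rho = 0.53), which ranked 160 and 344 of 22179 genes by r with Fh1. Within groups these values were 0.329 and 0.469, and without the 2 arrays farthest from the Fh1 median they were 0.575 and 0.238, so the likeness to Dlst rested largely on those arrays. The order of the members depended on the measure: within groups Ogdh (0.502) was highest and Mdh2 (0.401) exceeded Suclg1, and without the 2 farthest arrays Idh3a (0.605) was highest. By rho, Idh3a (0.587) lay between Suclg1 and Dlst. Fh1 and Cs had an r of -0.392. The pair Idh2 and Mdh2 had an r of 0.657, and 0.641 within groups.

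A single array stood highest over the set. Centred on its own mean over all arrays, the average of the 9 genes was -0.0198, 0.29, 0.0587, 0.11 and 0.0284 in the canagliflozin livers. It was -0.0577, -0.0089, -0.15, 0.0407 and 0.0606 under caloric restriction, and -0.14, -0.18, -0.0723 and 0.0252 in HFD controls. Canagliflozin replicate 2 was above all others, with 8 of its 9 genes above the HFD control mean. The remaining drug-treated livers overlapped the restricted ones, and without replicate 2 the median log2 difference of the 9 genes from HFD controls was 0.0983, in place of 0.15.

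The genes whose values followed Fh1 most closely were not enzymes of the cycle. Nnmt, nicotinamide N-methyltransferase, had the highest r of the genes considered (0.964 over 14 arrays, rho = 0.934, and 0.944 within groups). It measured 7.74, 8.39, 7.24, 8.09 and 8.10 under canagliflozin, against 7.10, 7.16, 7.13, 7.56 and 7.61 under caloric restriction and 7.40, 7.14, 7.15 and 7.30 in HFD controls. As with Fh1, 4 of 5 drug-treated livers were above all others and replicate 3 lay among them; its difference from HFD controls was 0.66 ± 0.18 (SE, limma adjusted p = 0.559). The next 4 genes by r were Tmed5, a protein of the early secretory pathway (0.945, rho = 0.78), Ctcflos, a non-coding transcript (0.939, rho = 0.802), Sik1, a kinase induced by cAMP signalling (0.922, rho = 0.811), and Lepr, the leptin receptor (0.921, rho = 0.789). Without the 2 arrays farthest from the Fh1 median, r lay between 0.817 and 0.951 for the 5 genes. The genes considered left out the members, gene models, small RNAs and the olfactory, vomeronasal, trace amine and taste receptor families. These 5 were picked for the highest r among the rest, so no test is given.

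The other genes of the cycle had differences of mixed size, and no test compared them with the members. Of 9 measured (Idh3g, Dld, Sucla2, Suclg2, Sdha, Sdhb, Sdhc, Sdhd and Ogdhl), 9 had a higher mean under canagliflozin than in HFD controls, with a median log2 difference of 0.0795 and a range from 0.0009 to 0.35, and 0 passed the threshold in either direction. For Sdha, Sdhb and Suclg2, canagliflozin replicates 1, 4 and 5 lay below the HFD control mean. Their higher means rested on replicates 2 and 3. Against caloric restriction 6 of the 9 genes were higher under the drug (median 0.0619). For restriction against HFD controls 4 of 9 were higher (median -0.0515), and in both 0 passed the threshold. Sucla2, the ATP-forming partner of Suclg1, measured 7.99, 8.23, 7.94, 7.90 and 8.03 under canagliflozin, against 7.77, 7.84, 7.60, 7.59 and 7.76 under caloric restriction and 7.93, 8.02, 7.67 and 7.70 in HFD controls. As for Suclg1, every drug-treated liver was above every restricted one (0.31 ± 0.10, SE, limma adjusted p = 0.683), while the controls overlapped both. Between drug and restriction, 0.929% of all genes had groups that did not overlap, and Sucla2 was named for its small p. Dld, the E3 component of the 2-oxo acid dehydrogenases, differed by 0.20 ± 0.10 between drug and restriction (adjusted p = 0.828). Sdhc, a membrane subunit of succinate dehydrogenase, differed by 0.35 ± 0.22 between drug and HFD control (adjusted p = 0.829), or by 0.59 without HFD control replicate 4, and varied widely within each group. Over members and remaining cycle genes together, 16 of 18 were higher under canagliflozin than in HFD controls and 11 of 18 higher than under restriction. The 16 include Sdha, Sdhb, Suclg2 and Ogdh. The Ogdh difference of 0.0101 changed sign with single arrays left out, to as low as -0.0674.

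**Figure D4:**
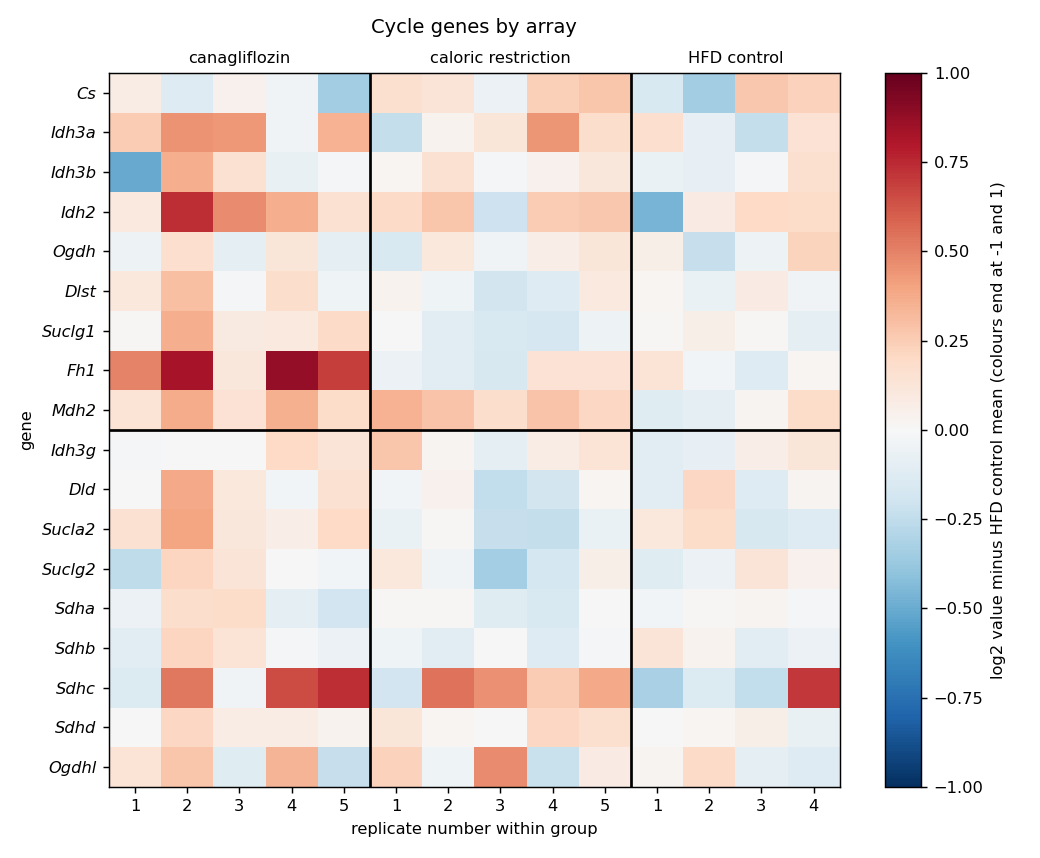
Colours give the log2 value of each cycle gene (rows) in each array (columns) minus the HFD control mean of that gene, for canagliflozin, caloric restriction and HFD control from left to right; the black horizontal line separates the 9 members from the 9 other cycle genes. The Fh1 row stands at 0.50, 0.83, 0.88 and 0.69 in canagliflozin replicates 1, 2, 4 and 5. The Mdh2 row is above the control mean in all treated arrays, by 0.13 to 0.37.

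Genes that feed, drain or regulate the cycle were examined in 7 further lists, in which 0 genes passed the threshold in any comparison. Among 12 genes of pyruvate entry, 8 were higher under canagliflozin than in HFD controls (median log2 difference 0.0388). Pdk4, the kinase that inactivates pyruvate dehydrogenase in fasting, differed by 1.14 ± 0.49 (SE, limma adjusted p = 0.741) with 4 of 5 livers above and 1 below all controls. Canagliflozin replicate 4 stood at 8.90 and the other drug-treated livers between 5.11 and 6.58, and without replicate 4 the Pdk4 difference was 0.55. Mpc1, a mitochondrial pyruvate carrier subunit, differed by -0.22 ± 0.15. Among 15 genes of anaplerosis and cataplerosis, 11 were higher (median 0.0313). Got1, the cytosolic aspartate aminotransferase, differed by 0.89 ± 0.23 and Pck1, which makes phosphoenolpyruvate from oxaloacetate, by 0.36 ± 0.10 (adjusted p = 0.559 for each). Each had 5 of 5 drug-treated livers above all controls, where 1.95% of all genes had groups that did not overlap, in either direction. Both were named for their small p, so this separation is partly a result of the choice.

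A list of enzymes that release fumarate outside the cycle, together with the enzymes of the steps before them, had a median of 0.18 over 6 genes, of which 5 were higher. The 3 that release fumarate are Asl, Fah of tyrosine breakdown and Adsl of purine synthesis, and they differed by 0.29, 0.0594 and 0.0336; the median of the list was raised by Ass1 and Adssl1, which act before the release. Ass1 and Asl, consecutive enzymes of the urea cycle, differed by 0.48 ± 0.15 and 0.29 ± 0.12 (limma adjusted p = 0.596 and 0.737), and Adssl1, of the purine nucleotide cycle, by 0.30 ± 0.14. Among 9 carriers of cycle intermediates, 8 were higher than in HFD controls (median 0.0747). The 8 include Slc25a10, Slc25a18 and Slc13a5, which barely differed, at 0.0005, 0.0082 and 0.0145. Slc25a22, a glutamate carrier, differed by 0.76 ± 0.24 (adjusted p = 0.581), and Slc25a1, the citrate carrier, by -0.18 ± 0.13, or by -0.0928 without canagliflozin replicate 2 and -0.11 without HFD control replicate 4.

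Of the extramitochondrial and NADP-linked counterparts of the cycle enzymes, 5 of 8 had lower means under canagliflozin than in HFD controls (median -0.0312). Against caloric restriction 7 of 8 had lower means (median -0.0799). Both counts include Me2, a mitochondrial NAD-linked malic enzyme kept in this list, at -0.0456 and -0.0722. The count against restriction also includes Mdh1b, whose group means of 2.38 to 2.55 lie below every array median. It includes Idh1 at -0.0184 as well, which changed sign with single arrays left out, to 0.0268 without caloric restriction replicate 2. Acly, which splits exported citrate for lipid synthesis, differed from HFD controls by -0.36 ± 0.17 (SE, limma adjusted p = 0.758) and Me1, the cytosolic malic enzyme, by -0.39 ± 0.33. Single arrays moved Me1: its difference was -0.11 once canagliflozin replicate 2 was omitted, -0.26 once HFD control replicate 4 was omitted and -0.68 once HFD control replicate 1 was omitted. Among 13 genes of assembly, lipoylation and cofactor supply, 9 were higher than in HFD controls (median 0.12). Lias, the lipoate synthase that serves Dlst, differed by 0.19 ± 0.09 and Lipt1, a lipoyl transferase, by -0.27 ± 0.10. Lipt1 is dim, with means of 4.51 under the drug and 4.78 in controls. Among 12 regulators of mitochondrial gene expression, 5 were higher and 7 lower (median -0.0528). Ppargc1a, a coactivator of mitochondrial and fasting genes, differed by 1.14 ± 0.29 with 5 of 5 livers above all controls (adjusted p = 0.559). In this comparison 1.95% of all genes had groups that did not overlap. Nrf1 differed by -0.23 ± 0.09 (adjusted p = 0.677), with 4 of 5 livers below all controls. For caloric restriction against HFD controls Nrf1 differed by -0.17 ± 0.09, with 5 of 5 livers below all controls. Under caloric restriction Polg, the mitochondrial DNA polymerase, differed by -0.45 ± 0.13 from HFD controls (adjusted p = 0.999), with 5 of 5 livers below all controls. Between restriction and HFD controls, 1.4% of all genes had groups that did not overlap. Under canagliflozin Polg differed from HFD controls by -0.27 ± 0.13, with 4 of 5 livers below and 1 above all controls. Drug and restriction differed by 0.17 ± 0.13 for Polg and by -0.0626 ± 0.08 for Nrf1. The genes named here were picked for their small p.

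**Figure D5:**
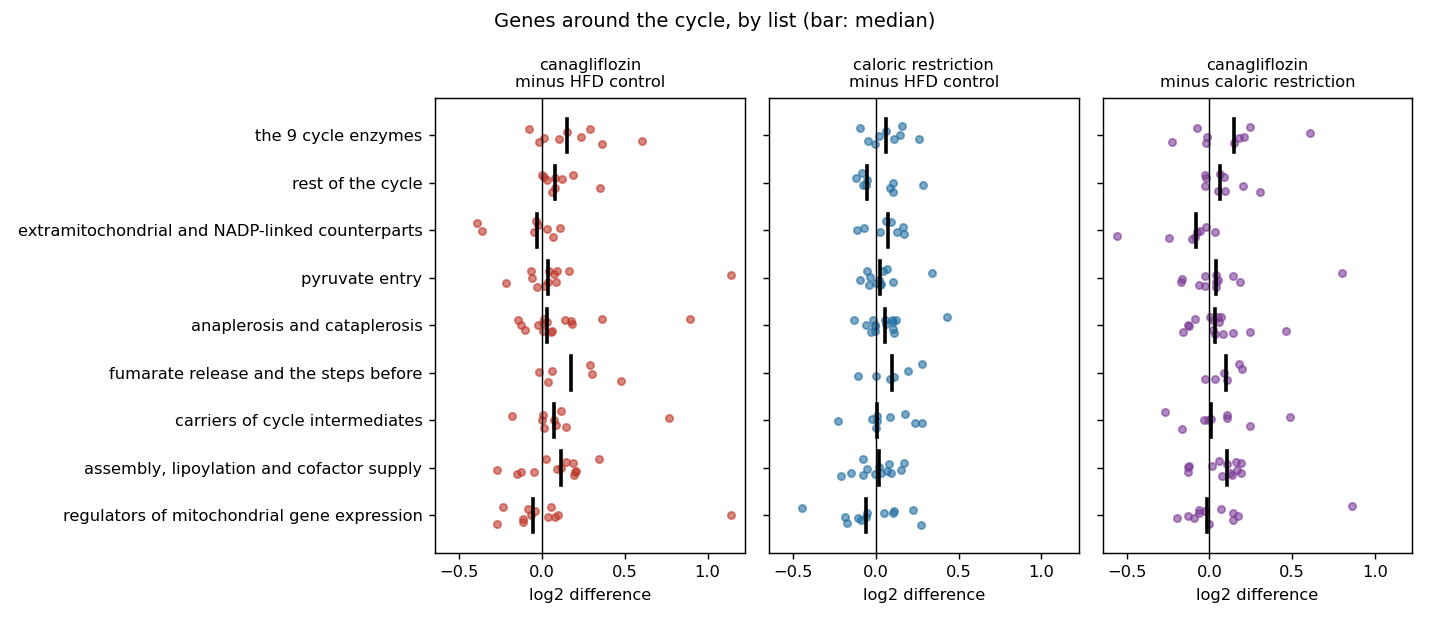
Each point is the log2 difference of 1 gene and each black bar the median of its list, for canagliflozin minus HFD control, caloric restriction minus HFD control and canagliflozin minus caloric restriction from left to right. In the left panel the list medians run from -0.0528 for regulators of mitochondrial gene expression to 0.18 for enzymes that release fumarate and those of the steps before, with 0.15 for the 9 cycle enzymes.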

How the data were processed

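Total liver RNA (250 ng) was labelled with the Affymetrix WT Plus protocol, per the labels' protocols. The deposited values are on a log2 scale, 1 per probe set; the submitters' processing notes name RMA and Affymetrix Expression Console. By its construction RMA subtracts background, gives all arrays 1 distribution and combines probes, so a global change in RNA content would not be seen. Version, library files and build were not found in the labels. The treatment protocol states 25 to 30 mg/kg canagliflozin. Each array was treated as 1 mouse, which the labels do not state array by array; otherwise p values measure only the spread between samples.

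Of 41345 probe sets, 23521 had 1 gene symbol, 1814 several (not used) and 16010 no entry. The probe set with the highest mean gave 22180 genes, all tested without a filter. In limma 3.58.1 (R 4.3.3), lmFit and eBayes modelled the 3 group means over 14 arrays together, with Benjamini-Hochberg adjustment over all genes per comparison and a threshold of 0.05. Errors of differences are standard errors and of groups standard deviations. The fit was tested on simulated data. The number of arrays limits the precision.

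The members, lists, alternatives and naming rule were chosen with earlier results of these data known. Named genes are the 9 members, the 2 with the smallest p per list and comparison, and the 5 with the highest r to Fh1 or to the members' mean. The choice by r left out members, gene models, small RNAs and the olfactory, vomeronasal, trace amine and taste receptor families. Not all named genes are printed. Of the listed genes, those without a probe set of their own were not analysed here; the erythroid marker list had none. Alternatives were leaving out each array, blocking on replicate number, the deposited order as a covariate, fitting the compared groups alone, array weights, a robust trended variance, cyclic loess, median centring, averaging a gene's probe sets and a filter at a mean log2 of 5.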

Additional observations from a re-analysis of the deposited data

Results flagged for a closer look

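Single arrays that lay far from the rest of their group were looked for in 144 groups of values (48 named genes in 3 groups). There were 6, no more than the share of about 1 in 20 groups that chance gives. Among the 27 groups of the cycle enzymes there were 2, both of Idh2. Caloric restriction replicate 3 had an Idh2 value of 8.32, with the other restricted livers between 8.71 and 8.80, and HFD control replicate 1 had 8.06, with the other controls between 8.61 and 8.72. Acly measured 9.96 in canagliflozin replicate 3, with the other drug-treated livers between 9.10 and 9.26. Me1 measured 8.02 in HFD control replicate 1, with the other controls between 9.08 and 9.28. Lipt1 measured 4.99 in HFD control replicate 2, with the other controls between 4.68 and 4.72. Arg1 measured 11.81 in canagliflozin replicate 2, with the other drug-treated livers between 11.51 and 11.57. No cause was tested for any of these values.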

How the results depend on the processing

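Fh1 kept a positive difference for canagliflozin under each of the 9 other settings. It ran from 0.57 (replicate block) to 0.62 (median centring) against HFD controls and from 0.61 to 0.62 against caloric restriction. The filter, the robust trended variance, the compared groups alone and averaged probe sets could change only its p. They leave the group means of a gene with 1 probe set as they were. Fh1 passed the threshold only without canagliflozin replicate 3. No other member passed in any setting. Over the members, 27 recomputed values changed sign, none of them past the threshold, and 466 kept sign and side of the threshold. The 466 include the settings in which the sign could not change. The median log2 difference of the 9 members lay between 0.0983 and 0.18 for canagliflozin against HFD controls when 1 array was left out, between 0.0255 and 0.11 for caloric restriction against HFD controls, and between 0.0936 and 0.19 for canagliflozin against caloric restriction. The number of genes past the threshold for canagliflozin against HFD controls was 0, but 1 with the filter, 1 with the deposited order as a covariate and 0 to 12 with 1 array left out (12 without canagliflozin replicate 3). For caloric restriction against HFD controls it was 0, and 1 with the deposited order. For canagliflozin against caloric restriction it was 1, and 2 with the replicate block, 0 with the compared groups alone and 0 to 16 with 1 array left out (16 without the same array). The cause was not tested. Same-numbered arrays had deviations from their group means that correlated at -0.089 to 0.198, with 3 of 13 pairs over 0.1. Their median was 0.05, against -0.0185 for other pairs between groups, and 5 of 14 arrays correlated best with their own number. The numbers were not taken to pair the mice. In the deposited order, HFD control replicates 3 and 4 stand beside replicates 4 and 5 of the other groups. These neighbours correlated at 0.105 and 0.122 with canagliflozin and at 0.077 and 0.128 with caloric restriction. Pairing by that order was not tested. Signal over background was not analysed here, and a difference under about 0.25 on the log2 scale is within the median interval.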

Other observations

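The 5 genes that followed the average of the 9 cycle enzymes most closely over the 14 arrays were Dpyd, which starts pyrimidine breakdown (r = 0.917, rho = 0.956), Ehhadh, the peroxisomal bifunctional enzyme (r = 0.912, rho = 0.89), Ap4b1, a vesicle adaptor subunit (r = 0.902, rho = 0.763), Asl (r = 0.901, rho = 0.829) and Arg1, the arginase that releases urea (r = 0.893, rho = 0.82). After each group's mean was removed, r lay between 0.848 and 0.908, and without the 2 arrays farthest from the median between 0.742 and 0.843. Of the 5, Asl and Arg1 belong to the urea cycle. Each had 5 of 5 canagliflozin livers above all HFD controls, where 1.95% of all genes had groups that did not overlap, in either direction. The margin was narrow, 11.30 against 11.29 for Asl and 11.51 against 11.49 for Arg1. Their log2 differences were 0.29 ± 0.12 and 0.14 ± 0.09 (SE, limma adjusted p = 0.737 and 0.832). Without canagliflozin replicate 2, the highest array for Arg1, the Arg1 difference was 0.083. The 5 genes were picked for the highest r. Members, gene models, small RNAs and the olfactory, vomeronasal, trace amine and taste receptor families were left out. No test of the likeness is therefore given.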
